A study of Mus musculus with 18 samples.

Results

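Matrix metalloproteinases (MMPs) and their tissue inhibitors (TIMPs) were examined in mouse monocytes that lacked STAT5 tetramers. The set was a list of 10 genes, *Mmp8*, *Mmp9*, *Mmp12*, *Mmp13*, *Mmp14*, *Mmp19*, *Mmp25*, *Mmp27*, *Timp1* and *Timp2*, each matched by its symbol in an RNA-seq table of 20298 genes. Of these, 9 were found, and *Timp1* was not analysed here. Expression was given by the authors as RPKM, a read count corrected for gene length and library size.

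MMPs are zinc-dependent endopeptidases that cut collagens, elastin and other matrix proteins, and also chemokines and cell surface proteins. Most are secreted as inactive proenzymes, while *Mmp14* and *Mmp25* encode membrane-anchored forms. TIMPs bind the active site of MMPs and block it, and TIMP2 also takes part with MMP14 in activating proMMP2. In phagocytes, MMP8 and MMP9 are known as stored enzymes of neutrophils, and MMP12 as the elastase of macrophages.

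There were 18 libraries in 6 groups of 3. WT and DKI mice, both of the C57BL/6 strain per the labels, gave Ly6C+ CCR2+ monocytes that were sequenced untreated on day 0 or after 3 or 6 days of culture with 20 ng/ml GM-CSF, the growth factor under which monocytes become monocyte-derived cells (MDCs). The DKI mice carry N-domain knockin mutations of both *Stat5a* and *Stat5b* in every cell, so that STAT5 dimers form but tetramers do not. The labels call the tissue liver and the design text calls it bone marrow. Of 4 hepatocyte markers all were at 0 in 16 of the 18 libraries, and their summed level was at most 0.047 RPKM. The ages and sexes of the mice, and how many mice gave each library, are not given in the sources used here, so p-values measure the spread between these libraries.

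The libraries held an estimated 29.5 M to 43.2 M reads (median 36.4 M), recovered from the RPKM of single reads. The 12 markers of neutrophils and their precursors summed to between 1508 and 1995 RPKM in the day 0 libraries, above the sum in any cultured library. Among the day 3 libraries their sum stood at 39.5, 716 and 22.9 RPKM (WT) or 563, 648 and 77.1 RPKM (DKI), and among the day 6 libraries at 209, 31.1 and 22.8 RPKM (WT) or 828, 21.9 and 30.2 RPKM (DKI). DKI replicate 1 stood apart in the cultures, with 6 stromal markers summing to 9.7 RPKM on day 3 and 32.8 RPKM on day 6, against less than 1 RPKM in all other cultured libraries. Replicate 1 of days 3 and 6 also carries an earlier year in its library name than the other libraries. In bulk RNA, fewer cells of a type and less RNA per cell cannot be told apart.

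Of the 9 genes, 4 (*Mmp13*, *Mmp12*, *Mmp8* and *Mmp27*) lie in a run of 10 MMP genes on chromosome 9, which spans 427072 bases (chr9:7272514-7699585, GRCm38). *Mmp13* (chr9:7272514-7283331) comes first, *Mmp12* (chr9:7344381-7369499) second, and *Mmp8* (chr9:7558456-7568485) directly precedes *Mmp27* (chr9:7571396-7581885), all on the plus strand. The others lie apart: *Mmp9* at chr2:164940780-164955850, *Mmp14* at chr14:54431612-54445364, *Mmp19* at chr10:128790910-128800824, and, on the minus strand, *Mmp25* at chr17:23628311-23645277 and *Timp2* at chr11:118301069-118355740. Exons of *Mmp12* share 157 bases with *Mmp1b* and exons of *Mmp19* share 789 bases with *Tmem198b*, each on the opposite strand. Since the sources used here do not state whether reads were counted by strand, reads in these stretches cannot be assigned. *Mmp1b* was at most 0.0779 RPKM in any library, and *Tmem198b* was between 2.96 and 7.44 RPKM.

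The 250 bases before the start sites of the 4 chromosome 9 members are shown because these neighbours differed in the genotype comparison. In the fits of each day without a block, *Mmp13* and *Mmp27* were called and *Mmp12* and *Mmp8* were not. *Timp2* and *Mmp25*, on other chromosomes, were called as well. The bases are RefSeq sequences of build GRCm38.p6, written 5′ to 3′. For *Mmp12* the window of the downstream start site is given, since the other overlaps an exon. Capitals mark matches to the letters TGANTCA, which AP-1 proteins are known to bind.
Mmp13, chr9:7272264-7272513, plus strand: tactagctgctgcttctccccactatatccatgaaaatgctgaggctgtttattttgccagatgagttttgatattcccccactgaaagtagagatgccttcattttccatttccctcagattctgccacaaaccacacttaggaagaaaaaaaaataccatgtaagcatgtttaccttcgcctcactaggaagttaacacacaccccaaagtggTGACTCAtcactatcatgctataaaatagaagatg
Mmp12, chr9:7347124-7347373, plus strand: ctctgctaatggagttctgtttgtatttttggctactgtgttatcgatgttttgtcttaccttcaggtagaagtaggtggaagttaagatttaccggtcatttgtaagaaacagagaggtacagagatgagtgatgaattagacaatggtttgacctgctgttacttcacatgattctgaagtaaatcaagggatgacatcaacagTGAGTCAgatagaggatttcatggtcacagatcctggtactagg
Mmp8, chr9:7558179-7558428, plus strand: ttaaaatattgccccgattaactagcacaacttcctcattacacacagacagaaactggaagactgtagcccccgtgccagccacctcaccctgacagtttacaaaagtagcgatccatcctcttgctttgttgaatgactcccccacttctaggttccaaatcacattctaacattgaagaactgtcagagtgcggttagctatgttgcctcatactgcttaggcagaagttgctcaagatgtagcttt
Mmp27, chr9:7571146-7571395, plus strand: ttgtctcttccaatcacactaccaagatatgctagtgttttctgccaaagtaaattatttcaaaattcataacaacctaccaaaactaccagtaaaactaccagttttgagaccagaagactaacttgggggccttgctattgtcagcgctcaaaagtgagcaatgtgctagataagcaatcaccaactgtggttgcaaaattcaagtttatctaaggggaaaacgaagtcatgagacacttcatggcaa

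*Mmp13* held TGACTCA beginning 35 bases before its start site and *Mmp12* held TGAGTCA beginning 44 bases before its downstream start site. The window of the upstream *Mmp12* start site, of which 16 bases are exonic, held no match. The windows of *Mmp8* and *Mmp27* held no match. TGANTCA was found in 6.75% of all 32851 RefSeq windows of this length. The letters TTCNNNGAA, the core of the sites that STAT dimers are known to bind, were found in 7.02% of them and in none of the 9 windows of the 8 members with a RefSeq window, *Timp1* included. Both letter patterns read the same on either strand, and a match or its absence in these letters says nothing about binding.

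Before GM-CSF, no member passed the test between WT and DKI monocytes, and most were low. *Mmp8*, which encodes the neutrophil collagenase, led in both genotypes with 111, 94.0 and 69.2 RPKM in WT and 137, 69.7 and 98.9 RPKM in DKI. It made up 65.9% to 81.6% of the summed RPKM of the MMP members in WT and 63.7% to 77.7% in DKI. MMP genes outside the list were not part of this sum. *Mmp19* followed at 14.4 ± 7.06 RPKM (SD, n = 3) in WT and 18.8 ± 8.74 RPKM in DKI, and was the only other member whose mean exceeded 10 RPKM. The next places, with overlapping ranges, were held by *Mmp9*, *Mmp13*, *Timp2* and *Mmp14*. *Mmp12* and *Mmp25* were near 1 RPKM and *Mmp27* was at 0.0280 to 0.287 RPKM, an estimated 2 to 20 reads.

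Replicate 1 of both genotypes was highest on day 0 for *Mmp12*, *Mmp13*, *Mmp14* and *Mmp27*. For *Mmp13*, which encodes a fibrillar collagenase, it stood at 22.4 RPKM (WT) and 18 RPKM (DKI), against 1.11 to 2.11 RPKM in the other 4 libraries. Between genotypes, 6 of the 9 members were high enough to be fitted with limma, and 0 of them passed (adjusted p under 0.05 and more than 1.5-fold), nor did any reach an unadjusted p under 0.05. Across all 9179 genes fitted on day 0 the share called was 0%, with 44 genes at an unadjusted p under 0.05. The interval of the difference was narrowest for *Timp2*, at 0.10 on the log2 scale (95% interval -0.54 to 0.75), and widest for *Mmp13* (-2.76 to 3.00).

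**Figure D1:**
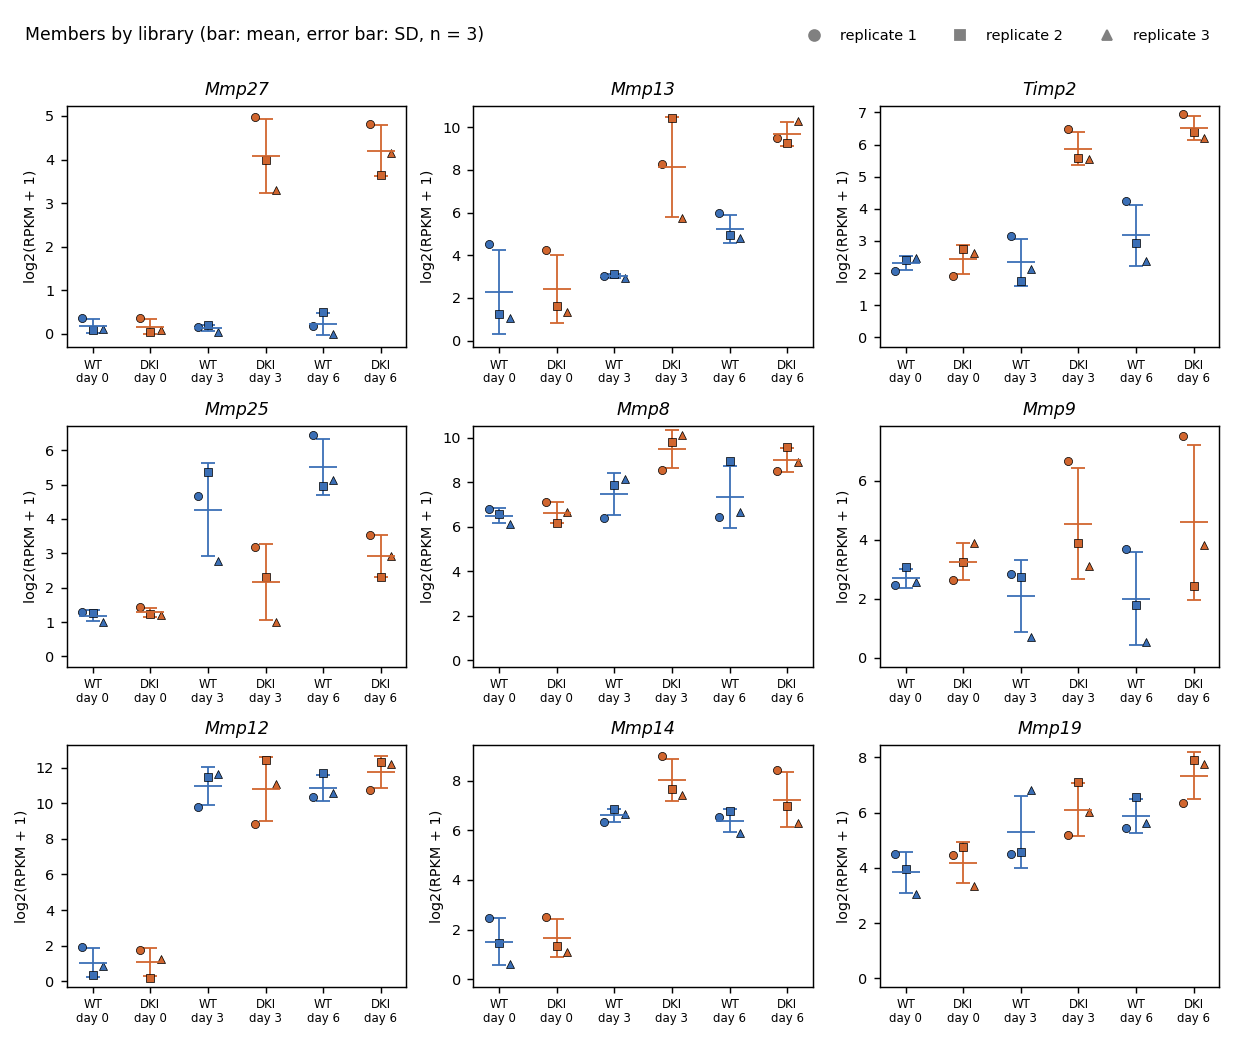
Expression of the 9 members in every library, as log2(RPKM + 1), by genotype and day. Each point is a library, with its shape giving the replicate number, the wide bar is the mean and the error bar the SD over 3 libraries. *Mmp27*, *Mmp13* and *Timp2* separate DKI from WT on days 3 and 6, *Mmp25* separates them on day 6 with DKI lower, and *Mmp12* and *Mmp14* rise in both genotypes.

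In culture, the clearest difference between genotypes was in *Mmp27*, *Mmp13* and *Timp2*, which were higher in DKI than in WT cells on both days. *Mmp27*, one of the less studied MMPs, stayed near zero in WT and was between 8.84 and 30.6 RPKM in the DKI cultures. *Timp2*, the only inhibitor among the 9, was 13.4-fold and 9.75-fold higher in DKI than in WT by the means of days 3 and 6. *Mmp25*, a membrane-anchored MMP of leukocytes, went the other way and was lower in DKI.

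On day 3, the WT libraries had *Mmp27* at 0.120, 0.144 and 0.0376 RPKM and the DKI libraries at 30.6, 14.8 and 8.84 RPKM. The lowest DKI library was far above the highest WT library. The values rest on an estimated 7, 9 and 2 reads in WT and 1995, 962 and 456 reads in DKI. On day 6 it was at 0.138, 0.422 and 0 RPKM in WT and 27.0, 11.5 and 16.7 RPKM in DKI, again with no overlap. The WT library at 0 allows up to 0.0598 RPKM (3 reads), a limit that covers counting error only. The ratio of the means was 180-fold on day 3 and 98.6-fold on day 6, and single libraries moved it, to 117-fold without DKI replicate 1 on day 3 and to 267-fold without WT replicate 2 on day 6. On the log2(RPKM + 1) scale, which understates changes of low genes, the difference was 3.95 (SE 0.41, adjusted p = 0.0069) on day 3 and 3.97 (SE 0.32, adjusted p = 0.00637) on day 6. *Mmp27* passed the level filter of these fits only through the DKI groups.

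*Mmp13* was at 7.19, 7.71 and 6.72 RPKM in WT on day 3, a narrow range, and at 309.8, 1377 and 52.1 RPKM in DKI, a wide one. All DKI libraries were above all WT libraries, but the DKI values spanned more than an order of magnitude. On day 6 it was at 61.6, 29.4 and 26.7 RPKM in WT and at 729, 606 and 1257 RPKM in DKI. The DKI libraries were closer together than on day 3 and remained apart from WT. The difference was 5.11 on the log2 scale on day 3 (SE 1.08, adjusted p = 0.042) and 4.46 on day 6 (SE 0.41, adjusted p = 0.00746), or 80.4-fold and 22-fold between means. Without DKI replicate 2 the day 3 ratio was 25.1-fold. The day 3 call was lost with the replicate number as a block (adjusted p = 0.053), without DKI replicate 1 (adjusted p = 0.0772) and without WT replicate 1, 2 or 3 (adjusted p = 0.133, 0.126 and 0.128), while its value stayed between 3.97 and 6.32 over all alternatives.

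*Timp2* was at 7.84, 2.35 and 3.32 RPKM in WT and 88.2, 47.4 and 46.0 RPKM in DKI on day 3. On day 6 the values were 17.7, 6.67 and 4.15 RPKM in WT and 122, 83.8 and 72.8 RPKM in DKI. The groups did not overlap on either day, and in each group replicate 1 was highest. The difference was 3.54 on the log2 scale on day 3 (SE 0.42, adjusted p = 0.0102) and 3.34 on day 6 (SE 0.48, adjusted p = 0.0197), and without WT replicate 1 the ratio of the means was 21.3-fold on day 3 and 17.2-fold on day 6. The day 6 call was lost without DKI replicate 1 (adjusted p = 0.0515), DKI replicate 3 (0.0681) or WT replicate 3 (0.0594).

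*Mmp25* was at 24.4, 40.5 and 5.79 RPKM in WT on day 3 and at 8.12, 3.98 and 0.99 RPKM in DKI. WT replicate 3 lay within the DKI range, and the difference of -2.10 (SE 0.80) was not called (adjusted p = 0.161), though it was with the replicate block (adjusted p = 0.0486) and with all 18 libraries in one fit (0.0346). The mean was 5.41-fold lower in DKI, 9.5-fold without DKI replicate 1 and 3.46-fold without WT replicate 2. On day 6 it was at 86.3, 30.4 and 33.9 RPKM in WT and 10.5, 3.94 and 6.57 RPKM in DKI, with no overlap. The difference of -2.60 (SE 0.47, adjusted p = 0.031) made the mean 7.17-fold lower in DKI, and 4.59-fold lower without WT replicate 1. That call was lost without DKI replicate 1 (adjusted p = 0.0502), DKI replicate 3 (0.0976), WT replicate 1 (0.0756) or WT replicate 3 (0.095).

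The other 5 members did not pass between genotypes on either day in the fit of that day without a block. *Mmp8* was at 83.7, 231 and 283 RPKM in WT and 372, 901 and 1113 RPKM in DKI on day 3, and the groups did not overlap. Its difference of 2.02 (SE 0.59) had an adjusted p of 0.0958, and it was called with the replicate block (adjusted p = 0.0212), with all 18 libraries in one fit (0.0426) and without both libraries numbered 1 (1.96, adjusted p = 0.03). On day 6 it was at 84.9, 489 and 99.0 RPKM in WT and 359, 774 and 479 RPKM in DKI, where WT replicate 2 exceeded 2 DKI libraries (log2 difference 1.67, adjusted p = 0.178, and 2.47 with adjusted p = 0.0291 without that library).

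*Mmp9*, which encodes gelatinase B, was at 6.24, 5.63 and 0.624 RPKM in WT and 101, 13.7 and 7.60 RPKM in DKI on day 3, and at 11.9, 2.43 and 0.463 RPKM in WT and 182, 4.41 and 13.2 RPKM in DKI on day 6. DKI replicate 1 set the DKI means of both days. On each day this cultured library also had the highest summed stromal and macrophage markers (macrophage sums 3335 and 3684 RPKM). On day 6 it had the highest summed neutrophil markers as well (828 RPKM). The part of these cell types in the *Mmp9* level was not tested. The differences of 2.46 (adjusted p = 0.188) and 2.58 (adjusted p = 0.271) did not pass, and without DKI replicate 1 they were 1.40 and 1.12.

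*Mmp12* was the most abundant member in every cultured group by its mean, and its difference had no clear sign on day 3, at -0.18 (95% interval -2.53 to 2.17, adjusted p = 0.927). It was positive at 0.79 without DKI replicate 1, 0.09 without WT replicate 2 and 0.16 without WT replicate 3. On day 6 the difference was 0.87 (interval -0.48 to 2.22). *Mmp14* was at 79.3, 114 and 100.5 RPKM in WT and 513, 205 and 170.4 RPKM in DKI on day 3 without overlap (difference 1.42, adjusted p = 0.101), and on day 6 the groups overlapped (0.85, adjusted p = 0.355). Without DKI replicate 1, the library highest in stromal and macrophage markers, these values were 0.94 (adjusted p = 0.0512) and 0.25 (adjusted p = 0.672). The ratio of the means went from 3.02-fold to 1.92-fold on day 3 and from 2.14-fold to 1.19-fold on day 6. *Mmp19* overlapped on both days, with differences of 0.80 (adjusted p = 0.534) and 1.46 (adjusted p = 0.113). Its day 3 difference ranged from 0.31 without DKI replicate 2 to 1.56 without WT replicate 3, and the ratio of the means, 1.51-fold, from 0.959-fold to 3.52-fold. These intervals were wide, so that a missed call does not show that the levels were alike.

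In counts, which include *Mmp27* although it passed the level filter through DKI alone, 3 of the 9 members fitted were called on day 3, all higher in DKI, where 7.42% of the 9740 genes fitted were called in either direction, 3.21% higher and 4.21% lower. On day 6, 3 members were called higher, against 2.72% of 9842 genes, and 1 was called lower, against 4.82%, with 7.54% called in either direction. With the replicate block, 4 members were called on each day (*Mmp8*, *Mmp27* and *Timp2* higher and *Mmp25* lower on day 3, and the same 4 genes as without the block on day 6), against 5.66% and 7.31% of genes. The libraries of both genotypes did not overlap for 6 members on day 3, all higher in DKI, against 13.4% of genes, and for 3 higher and 1 lower on day 6, against 10.6% and 26.6%. The median difference of the members was 2.02 on day 3 and 1.67 on day 6 on the log2 scale, beside -0.11 and -0.17 over all genes.

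**Figure D2:**
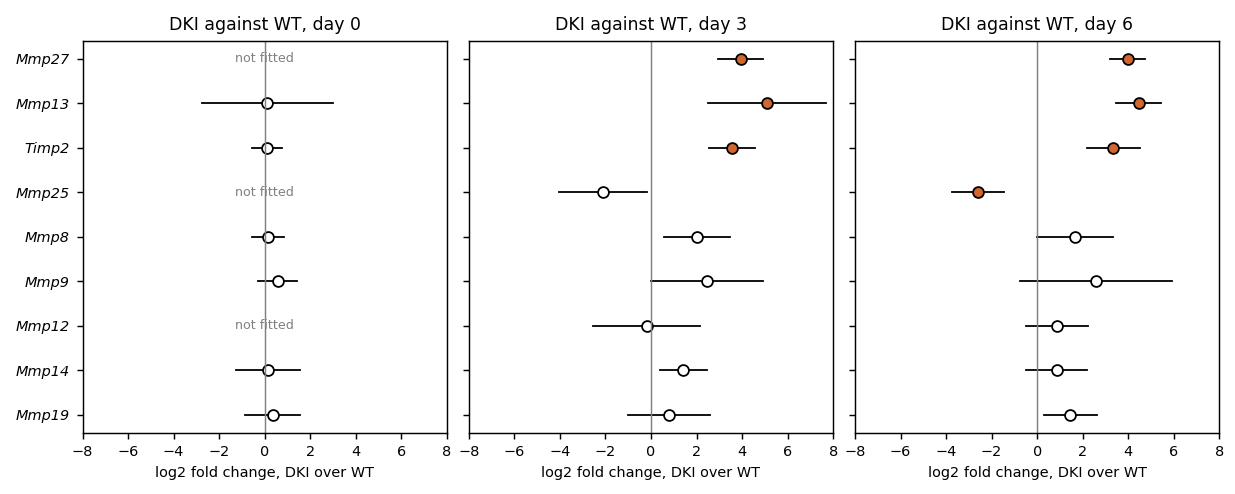
Difference between DKI and WT on days 0, 3 and 6 for each member, as log2 fold change on the RPKM + 1 scale with its 95% interval from limma (3 libraries a group). Filled points passed the test. On day 0 every interval includes 0, while *Mmp27*, *Mmp13* and *Timp2* lie above 3 on days 3 and 6 and *Mmp25* lies at -2.60 on day 6.

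Whether the genotype difference itself changed from day 0 was tested as an interaction over 12 libraries. *Mmp27* passed the level filter of these fits only through the DKI cultures. The difference changed for *Mmp27* and *Timp2* by day 3 (3.97, SE 0.48, adjusted p = 0.00202, and 3.44, SE 0.53, adjusted p = 0.00753), in a fit in which 2.91% of 10212 genes were called. By day 6 it did for *Mmp27* (3.99, SE 0.39, adjusted p = 0.000828), *Timp2* (3.24, SE 0.59, adjusted p = 0.0183) and *Mmp25* (-2.70, SE 0.54, adjusted p = 0.0266), where 2.80% of 10353 genes were called. By day 6 the *Timp2* call was lost under 2 of 19 alternatives, without WT replicate 2 or 3 of day 0 (adjusted p = 0.0557 and 0.0516), and the *Mmp25* call under 8 of 19, among them all 18 libraries in one fit (0.113) and leaving out any single day 0 library (0.0583 to 0.0692). *Mmp13* missed the limit at both times (4.99, adjusted p = 0.177, and 4.33, adjusted p = 0.115), and its day 0 levels were the most spread. Both comparisons use the same day 0 libraries. Between days 3 and 6, 0 members changed in their genotype difference (limma, 0 at an unadjusted p under 0.05), where the share of all 9985 genes called was 0% and 89 had an unadjusted p under 0.05.

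With GM-CSF, *Mmp12* rose 1788-fold between means in WT and 2071-fold in DKI, from less than 3 RPKM in all day 0 libraries to 869, 2885 and 3196 RPKM in WT and 463, 5498 and 2169.8 RPKM in DKI on day 3. The ratio was 4198-fold without WT replicate 1 of day 0, and in DKI 3578-fold without replicate 1 of day 0 and 1006-fold without replicate 2 of day 3. The log2 change was 9.92 (SE 0.58, adjusted p = 6.68e-05) in WT and 9.72 (SE 0.89, adjusted p = 0.00126) in DKI. *Mmp14*, whose product acts at the cell surface as an activator of other MMPs, rose by 5.11 (SE 0.44, adjusted p = 0.000296) in WT and 6.39 (SE 0.53, adjusted p = 0.000922) in DKI. *Mmp25* rose in WT, from 1 to 1.45 RPKM on day 0 to 5.79 to 40.5 RPKM on day 3 (3.08, SE 0.61, adjusted p = 0.00625). In DKI its change of 0.88 did not pass (adjusted p = 0.226), though it did without DKI replicate 3 of day 3 (1.47, adjusted p = 0.0283).

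Another 5 members passed the test in DKI and not in WT, which by itself does not compare the genotypes: *Mmp13* (5.74, adjusted p = 0.0162), *Mmp27* (3.93, adjusted p = 0.00185), *Timp2* (3.45, adjusted p = 0.00153), *Mmp8* (2.86, adjusted p = 0.00623) and *Mmp19* (1.91, adjusted p = 0.0386). In WT, *Timp2* changed by 0.01 (95% interval -0.84 to 0.87), *Mmp13* by 0.75, *Mmp8* by 0.97 and *Mmp19* by 1.46, none past the limit, and *Mmp27* was too low to be fitted. The *Mmp13* change in WT was 1.88 (adjusted p = 0.000842) without WT replicate 1 of day 0, and that of *Mmp8* was 1.5 (adjusted p = 0.00623) without WT replicate 1 of day 3. In DKI, the *Mmp19* call was lost when DKI replicate 2 or 3 of day 3 or any DKI library of day 0 was left out (highest adjusted p = 0.104), and the *Mmp13* call was lost without DKI replicate 2 (0.0594) or 3 (0.0553) of day 0. In all, 3 of 8 members fitted in WT rose, where 43.1% of 9938 genes were called with 20.3% higher and 22.8% lower, and 7 of 9 in DKI rose, where 34.2% of 9922 genes were called with 13.1% higher and 21.1% lower. No member was called lower in either genotype. *Mmp12* and *Mmp25* in both genotypes, and *Mmp27* in DKI, passed the level filter of these fits only through day 3.

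From day 3 to day 6, 0 members changed past the limit in either genotype by limma, where 0% of the 9613 genes fitted in WT and 0% of the 9540 fitted in DKI were called. At an unadjusted p under 0.05 stood 722 genes in WT, of which 1 was a member, and 93 in DKI, of which 0 were members. The member was *Mmp13*, which went from 6.72 to 7.71 RPKM to 26.7 to 61.6 RPKM in WT with no overlap, as did 6.09% of the genes fitted (log2 change 2.19, SE 0.31, adjusted p = 0.596). *Mmp13* in WT on day 6 was thus still below the lowest DKI library of that day, at 606 RPKM.

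The order of the members changed with culture. *Mmp12* took 79.6% to 87.2% of the summed RPKM of the MMP members in WT on day 3 and 77.4% to 85.1% on day 6. Its range in WT did not overlap that of the next gene, *Mmp8*. In DKI its share was lower, 25.3% to 67.5% on day 3 and 49.4% to 74.3% on day 6, while *Mmp13* held 1.45% to 16.9% and 8.84% to 21.3%. In WT, *Mmp13* held at most 0.658% on day 3 and 3.68% on day 6. Shares of a sum move together, and these are descriptions with no test. The sum of the MMP members on day 3 reached 1092, 3307 and 3704 RPKM in WT and 1834, 8149 and 3587 RPKM in DKI. The groups overlapped. On day 6 the sums were 1676, 4127 and 1779.5 RPKM for WT and 3429, 6854 and 6785 RPKM for DKI, where the groups overlapped through WT replicate 2.

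**Figure D3:**
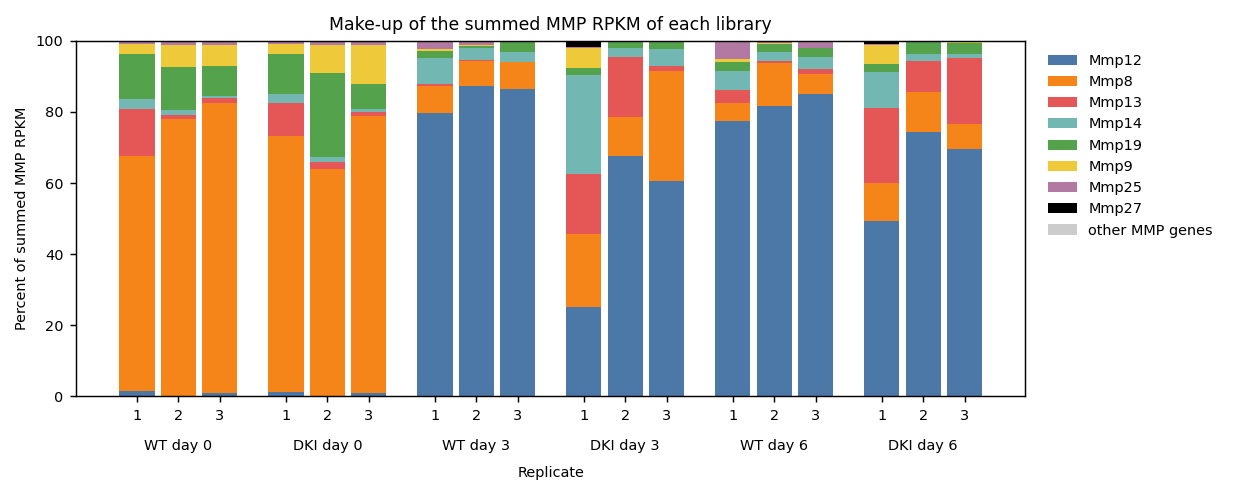
Share of each MMP member in the summed RPKM of the MMP members, in percent, with 1 stacked bar for each library. *Mmp8* fills most of the bars of day 0 and *Mmp12* most of those of the cultures, except in DKI replicate 1, where *Mmp13* and *Mmp14* take 16.9% and 28.0% on day 3 and *Mmp12* 25.3%.

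Among neighbours on chromosome 9, levels differed by orders of magnitude. *Mmp13* and *Mmp27*, which lie at opposite ends of the expressed stretch, were both called between genotypes. In the fits of each day without a block, *Mmp12*, next to *Mmp13*, and *Mmp8*, next to *Mmp27*, were not. Of the 6 other MMP genes of the run, *Mmp1a*, *Mmp1b*, *Mmp3*, *Mmp7* and *Mmp20* were below 1 RPKM in all 18 libraries. *Mmp10*, which encodes a stromelysin, had 1.05, 6.21 and 0 RPKM in the DKI libraries of day 3, then 2.35, 0.389 and 0.236 RPKM in those of day 6. The WT libraries of day 3 had 0.0165, 0.0620 and 0 RPKM, and those of day 6 had 0.0333, 0.0136 and 0.0193 RPKM. The genotypes overlapped on day 3 through the DKI library at 0, and on day 6 every DKI library was above every WT library, although the WT values rest on an estimated 1 or 2 reads.

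**Figure D4:**
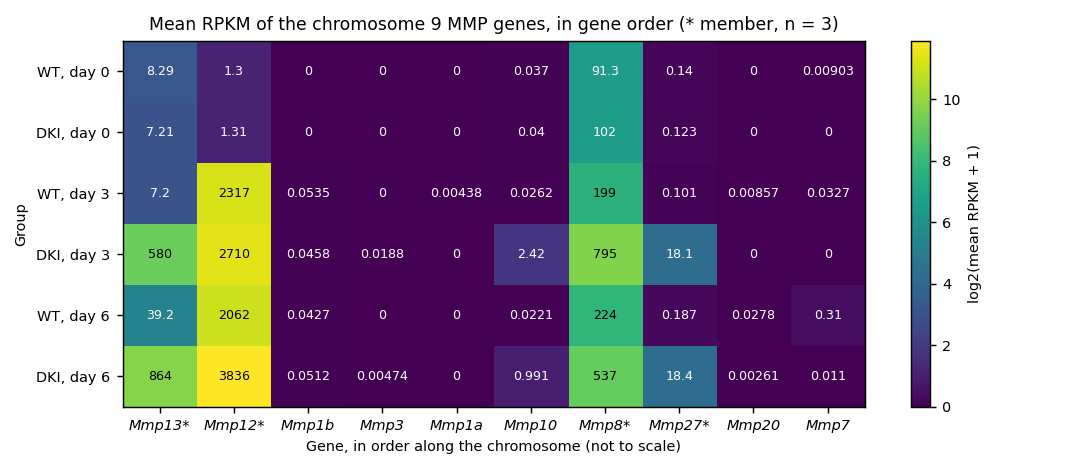
Mean RPKM of 3 libraries for the 10 MMP genes of chromosome 9, with genes in their order along the chromosome (not to scale) and 1 row for each group. The color is log2(mean RPKM + 1) and the printed number is the mean RPKM. *Mmp13*, *Mmp12*, *Mmp8* and *Mmp27* carry the signal, and *Mmp27* is at 18.1 and 18.4 RPKM in the DKI cultures against less than 0.2 RPKM elsewhere.

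Across the 18 libraries, *Mmp27* and *Timp2* followed each other closely (Pearson r = 0.95 on the log2 scale), and *Mmp13* followed both (r = 0.88 and 0.86). *Mmp25* followed none of these (r between -0.09 and 0.20). Over 10417 genes, the nearest patterns were *Itsn1* (r = 0.98), *Syngr1* (0.98) and *Ecm1* (0.97) for *Mmp27*, *Fcna* (0.98) and *Ecm1* (0.97) for *Timp2*, *Pmp22* (0.97) for *Mmp13* and *Fscn1* (0.97), which encodes the actin-bundling protein fascin, for *Mmp25*. *Mmp12* lay closest to *Cdk18* (0.99). *Mmp9* had the weakest best match, *Siglec1* (0.89). These points are libraries of 6 groups that share day and genotype, so the correlations describe the groups and have no test.

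Sums of macrophage and dendritic cell markers differed between the genotypes in the cultures. In WT, 6 macrophage markers summed to 202 to 626 RPKM on day 3 and 276 to 1388 RPKM on day 6, and in DKI to 1122 to 3335 RPKM and 993 to 3684 RPKM, with overlap on day 6 through WT replicate 1. By limma, 3 of the 6 were called higher in DKI on day 3 and 2 on day 6, against 3.21% and 2.72% of all genes. With the replicate block 4 and 3 were called. *Stab1* passed the level filter on day 6 only through DKI. For 6 markers of monocyte-derived dendritic cells, the WT sums were 4584 to 6765 RPKM on day 3 and 2844 to 7569.7 RPKM on day 6. The DKI sums were 76.0 to 384 RPKM and 269 to 439 RPKM, without overlap. *Ccl17* held most of the WT sums, at 3473 to 5758 RPKM on day 3 and 1871 to 6080 RPKM on day 6. By limma, 4 markers were called lower on each day, against 4.21% and 4.82% of all genes. With the replicate block 3 were called on each day. *Flt3* passed the level filter on day 6 only through WT.

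Classical monocyte, osteoclast and neutrophil markers were summed in the same way. The sums of 6 classical monocyte markers were highest on day 0 in both genotypes (2581 to 3567 RPKM), where *Mmp27* and *Timp2* were low. In the cultures they were 800 to 1192 RPKM in WT and 1468 to 2466 RPKM in DKI on day 3, and 631 to 1126 RPKM in WT and 1382 to 1737 RPKM in DKI on day 6. Their sums did not overlap, but 0 of the 6 were called on either day by limma (4 and 1 at an unadjusted p under 0.05). The sums of 6 osteoclast markers overlapped on both days. They were 96.1 to 232 RPKM in WT and 73.1 to 192 RPKM in DKI on day 3, and 111 to 181 RPKM and 91.9 to 168 RPKM on day 6. The sums hide a split of this list. *Ctsk* and *Acp5* were higher in DKI, with means of 42.0 and 40.7 RPKM against 9.57 and 6.77 RPKM in WT on day 3. *Dcstamp* and *Ocstamp* were lower, with means of 39.9 and 13.3 RPKM against 120 and 32.7 RPKM. The means differed in the same directions on day 6. By limma, 0 of the 4 osteoclast markers fitted were called on either day (3 and 4 at an unadjusted p under 0.05, and 1 and 2 called with the replicate block). The neutrophil sums given above overlapped as well. On day 3 the difference was positive for 11 of 12 markers (median 1.71 on the log2 scale, 1 called). On day 6 it was positive for 10 of the 11 fitted (median 0.98, 0 called by limma and 1 at an unadjusted p under 0.05). This was the same direction as *Mmp8* and *Mmp9*. However, *Ctsg*, *Elane*, *Ly6g*, *Mpo*, *Prtn3* and *Retnlg* passed the level filter of day 6 only through DKI, as did *Ly6g* and *Retnlg* on day 3. The filter favoured a positive difference for these markers, so the tallies are descriptions only. DKI replicate 1 summed to 828 RPKM on day 6, against 21.9 and 30.2 RPKM in the other DKI libraries.

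In the cultures, *Mmp27*, *Mmp13* and *Timp2* were thus higher in the groups with more macrophage marker RNA and *Mmp25* in those with more dendritic cell marker RNA, and the part of cell type makeup, neutrophils included, in the differences of the members was not tested. Without both libraries numbered 1, including the DKI library with stromal markers, *Mmp27* and *Timp2* were still called on day 3 (3.51, adjusted p = 0.0255, and 3.65, adjusted p = 0.0164) and on day 6 (3.64, adjusted p = 0.0482, and 3.65, adjusted p = 0.0411). *Mmp13* was called on day 6 (4.91, adjusted p = 0.0461) but not on day 3 (5.04, adjusted p = 0.161), and *Mmp25* was not called on day 6 (-2.44, adjusted p = 0.064).

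Of 18 other genes of the family (MMPs, TIMPs and *Reck*, a membrane-bound inhibitor), only *Mmp2*, *Mmp10*, *Mmp23* and *Mmp28* had a mean above 2 RPKM in any group. *Mmp23* was at 2.33, 6.30 and 1.73 RPKM in WT and 0.195, 0.266 and 0.0672 RPKM in DKI on day 3, and at 8.31, 4.06 and 10 RPKM in WT and 1.21, 0.214 and 0.866 RPKM in DKI on day 6. It was lower in DKI on both days (-1.79, adjusted p = 0.0479, lost with the replicate block at 0.0569, and -2.23, adjusted p = 0.0268), the same direction as *Mmp25*. *Mmp23* passed the level filter of these fits only through the WT groups, where it is high. *Mmp28* fell from 1.21 to 5.22 RPKM on day 0 to less than 0.6 RPKM in all cultured libraries, and was called lower on day 3 in WT (-1.41, adjusted p = 0.024) and DKI (-1.35, adjusted p = 0.0174), in fits whose level filter it passed only through day 0. *Mmp2*, the gelatinase that MMP14 and TIMP2 are known to activate, reached 19.2 RPKM in DKI replicate 1 of day 6 and no more than 2.20 RPKM in any other library. That library also had the highest stromal, macrophage and neutrophil marker sums of the cultures.

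Among 25 genes for activation and partner proteolysis (plasminogen with its activators, their receptor and inhibitors, furin-type convertases, ADAM and ADAMTS proteases, granule serine proteases, and the MMP-binding or protease-clearing partners *Bsg*, *Cd44*, *Lcn2*, *A2m* and *Lrp1*), 17 were fitted between genotypes on day 3 and 4 were called, where 7.42% of all genes fitted were called. *Serpinb2*, an inhibitor of urokinase, was higher in DKI (3.62, adjusted p = 0.0232), as were *Adam9* (1.16, adjusted p = 0.0176) and the TNF-releasing protease *Adam17* (0.88, adjusted p = 0.0277). *Adam19* was lower (-1.71, adjusted p = 0.0219). With the block only *Serpinb2* and *Adam19* were called. On day 6, where 7.54% of all genes were called, 1 of 19 was called, a share near that of all genes. It was *Adam9* (log2 difference 1, adjusted p = 0.0331), which was lost with the block (0.0534), where *Serpinb2* was called instead (2.74, adjusted p = 0.0379, against 0.0502 without it). From day 0 to day 3, 8 of 18 were called in WT, 2 higher and 6 lower, beside 43.1% of all genes, and 9 of 18 in DKI, 4 higher and 5 lower, beside 34.2%. The WT share is near that of all genes, and these counts are no result about the list. *Plau*, the gene of urokinase, rose in both (2.67 and 3.07), and the granule protease genes *Elane*, *Prtn3* and *Ctsg* fell in both.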

How the data were processed

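RNA was measured by single-end RNA-seq in 18 libraries of WT and DKI mouse monocytes. The authors aligned reads to mm10 with Subread and counted them on RefSeq genes with featureCounts, whose versions and strand setting are not given in the sources used here, and deposited RPKM values, 1 column per library. Depth per library was estimated from 884 single-exon genes (29.5 M to 43.2 M reads); 70.2% of 1143 other low values were whole reads within 0.02 read, where chance gives 4%, so no count test was run. Counting limits cover counting error only.

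Members were matched by symbol and named throughout. The members and gene lists were chosen with earlier results of these data known. The other genes named are family genes with a mean above 2 RPKM in a group, called partner genes and the closest patterns. Log2(RPKM + 1) values of genes with a mean above 2 RPKM in a group of the comparison were fitted with limma 3.58.1 in R 4.3.3 (eBayes with trend), over the groups compared, and called at a Benjamini-Hochberg adjusted p under 0.05 over all genes fitted and a fold change above 1.5. Intervals are 95%. The steps were tested on simulated data. Figures used matplotlib 3.10.9 and sequence windows pandas 2.3.3 in Python 3.11.15. Positions are from GENCODE M21 (GRCm38).

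Replicate numbers in the labels pair WT with DKI. Same-numbered libraries deviated together from their group means (r = 0.69 to 0.87 on day 0, 0.16 to 0.37 on day 3, 0.34 to 0.41 on day 6, and 0.12 to 0.74 between days 3 and 6, but -0.21 to 0.18 between days 0 and 3), so the replicate block is given beside a result where it changes the call. Alternatives were the block, a pseudocount of 0.1, no filter, median centring, quantile normalization, all 18 libraries, no trend, each library left out, and, chosen after seeing the data, both libraries numbered 1 left out.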

Additional observations from a re-analysis of the deposited data

Results flagged for a closer look

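The difference between DKI and WT changed from day 0 for 3 genes, each by a test of the interaction between genotype and day (limma, 12 libraries, log2 scale). For *Mmp27* the change was 3.97 (SE 0.48, adjusted p = 0.00202) by day 3 and 3.99 (SE 0.39, adjusted p = 0.000828) by day 6, and the calls held under all 19 alternatives at each time. *Mmp27* passed the level filter of these fits only through the DKI cultures, where it is high, and with no filter on low values the adjusted p was 0.0038 and 0.00104. For *Timp2* it was 3.44 (SE 0.53, adjusted p = 0.00753) by day 3, which held under all 19, and 3.24 (SE 0.59, adjusted p = 0.0183) by day 6, which was lost without WT replicate 2 (adjusted p = 0.0557) or 3 (0.0516) of day 0. For *Mmp25* it was -2.70 (SE 0.54, adjusted p = 0.0266) by day 6, with DKI lower, and was lost under 8 of 19 alternatives. These were all 18 libraries in one fit (adjusted p = 0.113), leaving out DKI replicate 3 of day 6 (0.0575) and leaving out any single day 0 library (0.0583 to 0.0692). The comparisons of both days use the same day 0 libraries, so they are not independent of each other.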

How the results depend on the processing

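The number of members called between DKI and WT on day 3 was 3, and 5 with all 18 libraries in one fit. On day 6 it was 4, and 2 with no filter on low values. Leaving out each library in turn gave 2 to 3 members on day 3 and 2 to 5 on day 6, with 2 without DKI replicate 1, DKI replicate 3 or WT replicate 3, and 1 to 4 in place of 3 for the interaction by day 6, with 1 without WT replicate 2 or 3 of day 0. Beside those, the numbers of members called stayed within 1.5 times. The replicate block changed the calls of *Mmp13*, *Mmp8* and *Mmp25* on day 3, called 4 members on day 3, and changed no other call of a member. Between days 0 and 3 the numbers did not pair the libraries, and the block kept 3 members called in WT and 7 in DKI. *Mmp13* on day 3 was also lost with no filter (adjusted p = 0.0876), *Mmp25* on day 6 (0.0657), *Timp2* on day 6 (0.0515) and *Mmp19* in DKI by day 3 (0.0734) as well, with more genes tested. *Mmp27* kept its calls throughout. Differences that were not called turned sign as follows: *Mmp12* on day 3 without DKI replicate 1 (0.79), WT replicate 2 (0.09) or WT replicate 3 (0.16), and without both libraries numbered 1 (0.19), with a lowest value of -0.996 on leaving out single libraries, *Mmp9* in WT by day 3 without WT replicate 3 of day 3 (0.10, lowest -0.98), and *Timp2* in WT by day 3 with a pseudocount of 0.1 (-0.011), quantile normalization (-0.11), or without WT replicate 1 of day 3 (-0.39) or of day 0 (-0.11), with 0.31 at most. The cause of these changes was not tested. Over all genes, 723 calls on day 3 became 358 with no filter, 1350 with all libraries, 369 without both libraries numbered 1 and 197 to 715 with 1 library left out, and 742 on day 6 became 187, 1545, 38 and 90 to 984. Depth limited *Mmp27* in WT, where 0 to 30 reads lie behind each value.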
